A study of Bos taurus with 12 samples.

Results

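The genes described here are the nuclear genes of the last 3 protein complexes of oxidative phosphorylation, complex III, complex IV and complex V, with the electron carrier cytochrome c, in the right ventricle of cattle. They were taken from the deposited table by gene symbol, namely every gene off the mitochondrial genome whose symbol begins with UQCR, COX4, COX5, COX6, COX7, COX8 or ATP5, and CYC1 and CYCS. The rule met 49 entries, and where a symbol was repeated the entry with the highest mean was kept, which left 43 of 24616 genes. There were 9 genes of complex III, CYCS for cytochrome c, 16 genes of complex IV and 17 genes with the ATP5 prefix of complex V. A filter on low values, which asked for 1 RPKM or more in 3 or more libraries, passed 42 of them, among 11374 genes tested in all, and left out COX6B2. RPKM is the number of reads per kilobase of exon, scaled to the mapped reads of the library, so levels can be set side by side between genes.

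The study sequenced RNA from the right ventricle of 12 Angus steers of wild-type genotype, 1 animal for each library. All were males that were born and kept at 2170 m (7120 ft), were castrated at weaning and were slaughtered between 13 and 15 months of age, so every group lived in the same chronic hypoxia and no group came from low elevation. The mean pulmonary artery pressure (PAP), measured by repeated catheterization of the right heart, and clinical signs placed the animals in 3 groups. PH-failure (n = 3) had pulmonary hypertension with right heart failure, PH-healthy (n = 3) had pulmonary hypertension without failure, and low PAP (n = 6) tolerated the hypoxia with a low pressure. The comparisons ask how the ventricle of each hypertensive group differed from that of the low-PAP group, and how the hypertensive groups differed from each other.

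Complex III passes electrons from ubiquinol to cytochrome c, complex IV passes them from cytochrome c to oxygen, and complex V, the ATP synthase, uses the proton gradient built by the other complexes to make ATP. A few core subunits are encoded by the mitochondrial genome and all others by nuclear genes, whose proteins are imported. Heart muscle is among the tissues richest in these complexes, and in cattle, as in other mammals, some complex IV subunits have a separate isoform made mainly in heart and skeletal muscle beside one made in most tissues.

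The libraries held 14739237 to 31090198 mapped reads, recovered from the steps between RPKM values, and the least deep was PH-failure 1. The members took 2.00 to 3.07% of the reads in exons in PH-failure, 2.54 to 2.66% in PH-healthy and 2.99 to 4.00% in low PAP. They are short genes, with a median of 612 exon bases (302 to 1912) against 1948 for all tested genes. Against low PAP, the median tested gene had a log2 fold change of 0.21 in PH-failure and 0.18 in PH-healthy. The typical gene thus read slightly higher in both hypertensive groups, and the members' values are to be read against that shift. The cardiomyocyte markers listed for the check were all present, at a summed level of 65640 to 105360 RPKM in PH-failure, 93664 to 102718 RPKM in PH-healthy and 96748 to 121243 RPKM in low PAP. Each value comes from bulk tissue, in which fewer cells of a type and less RNA per cell cannot be told apart.

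Most of these genes were lower in both hypertensive groups than in low PAP. In PH-failure against low PAP, 27 of the 42 tested members fell and 0 rose (limma, Benjamini-Hochberg adjusted p under 0.05 over all tested genes), where 5.79% of all tested genes fell and 28% rose (33.8% in either direction). In PH-healthy against low PAP, 25 members fell and 0 rose, where 8.15% of all tested genes fell and 26.6% rose (34.7% in either direction). The median log2 fold change of the 42 members was -0.55 in PH-failure and -0.53 in PH-healthy, and 40 of the 42 were negative in each. The comparisons share the low-PAP libraries. In PH-failure 13 members lay below every low-PAP library in all 3 libraries, where this held for 3.74% of tested genes, and in PH-healthy 26 did, where it held for 9.3%. In each comparison 0 of the 42 tested members lay above every low-PAP library, where 18.6% of tested genes did in PH-failure and 25% in PH-healthy. By complex, PH-failure had 9 of 9 members of complex III called lower, CYCS, 7 of 15 of complex IV and 10 of 17 of complex V. PH-healthy had 6 of 9, CYCS, 6 of 15 and 12 of 17. The 17 include ATP5S, called lower in both groups, and ATP5SL, called in neither, which share the prefix but are not subunits.

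**Figure D1:**
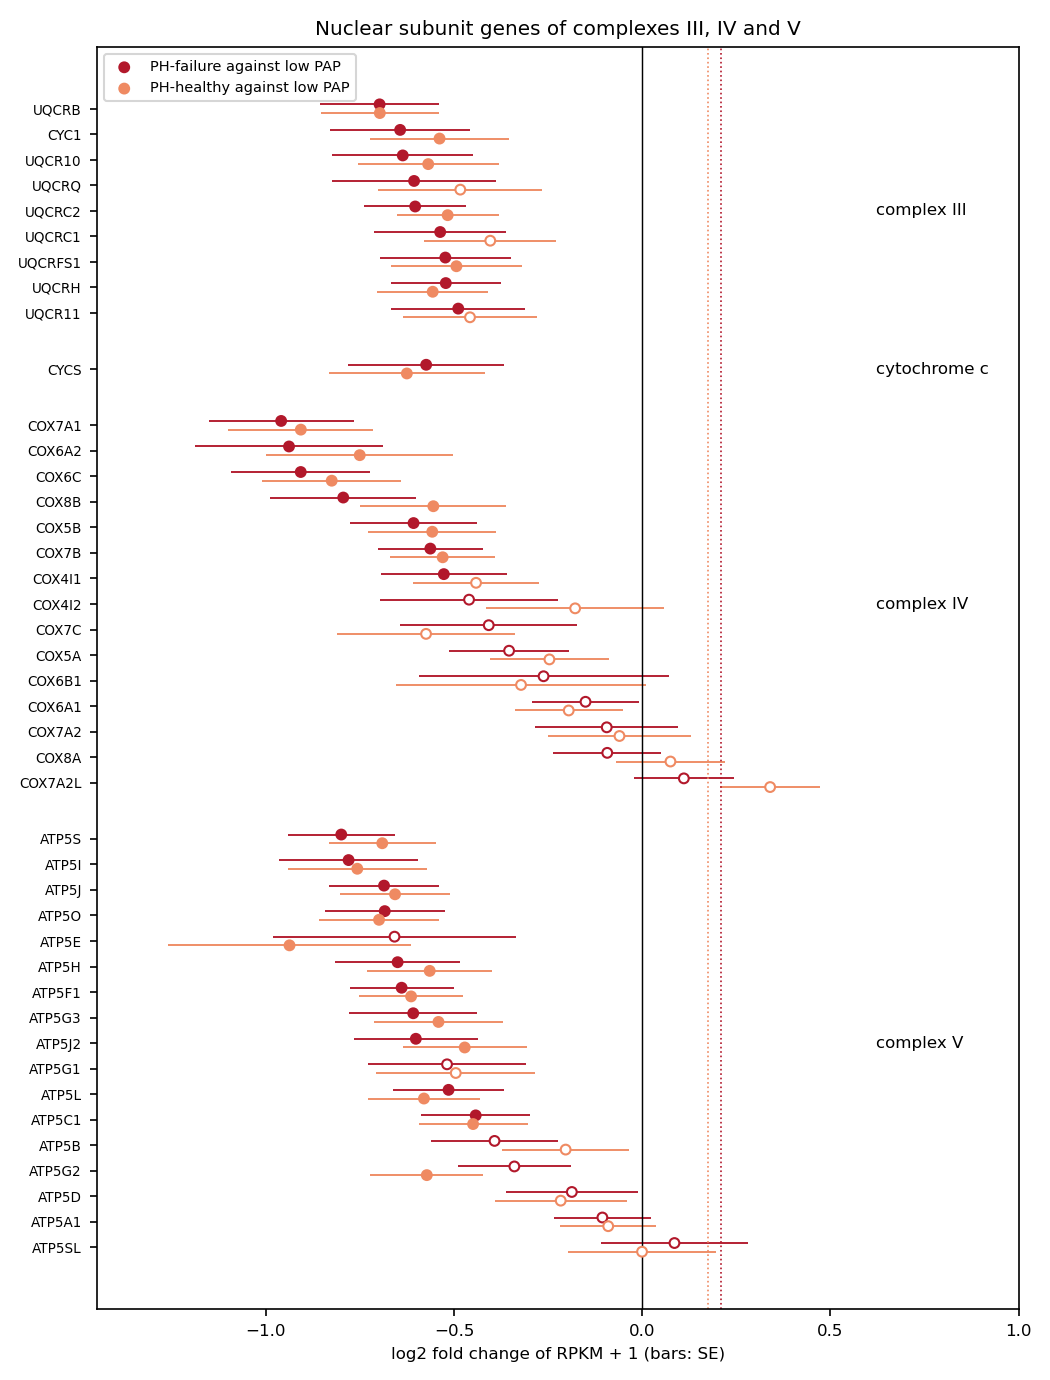
Log2 fold change of RPKM + 1 against low PAP (horizontal axis; bars are 1 SE) of the 42 tested members, by complex, for PH-failure (dark red, upper of each pair) and PH-healthy (orange, lower). Filled points passed the limma test at an adjusted p under 0.05, and dotted lines mark the medians of all tested genes, 0.21 and 0.18; the filled points all lie left of 0.

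The counts moved with single libraries. Without PH-failure 3, 9 members were called lower in PH-failure, all of them among the 27 (UQCRB, UQCRC2, COX6C, COX7A1, ATP5F1, ATP5I, ATP5J, ATP5O and ATP5S). Without PH-failure 2 there were 16, and without PH-failure 1 there were 33. The share of all tested genes called lower moved too. It was 2.26% without PH-failure 3, 2.89% without PH-failure 2 and 8.17% without PH-failure 1, against 5.79% with every library. The 9 members named were those called in each of the 12 fits that left out 1 library. In PH-healthy 8 members were called in each of those fits, the same genes without UQCRC2. The PH-healthy count was 10, 13 and 13 without PH-healthy 1, 2 and 3, and 15, 15 and 16 without low PAP 3, 4 and 5. The share of all tested genes called lower in PH-healthy fell too, from 8.15% with every library. It was 3.36 to 4.93% without 1 PH-healthy library and 5.65 to 6.1% without low PAP 3, 4 or 5.

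The 9 complex III genes fell together in PH-failure, with log2 fold changes of -0.70 to -0.49. UQCRB, a small subunit close to the ubiquinone-binding site and the most abundant of them (chromosome 14, 70329414 to 70334124), had 1491, 1291 and 1071 RPKM in PH-failure 1, 2 and 3, 1289.6, 1386 and 1154 RPKM in PH-healthy 1, 2 and 3, and in low PAP 1678 at the lowest, 1997 at the median and 2678 at the highest. Every hypertensive library lay below every low-PAP library. The log2 fold change was -0.70 ± 0.16 (SE) in PH-failure (limma adjusted p = 0.00835) and -0.70 ± 0.16 in PH-healthy (adjusted p = 0.00701).

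CYC1, cytochrome c1, the subunit that hands electrons to cytochrome c (chromosome 14, 1930186 to 1932580), had 441, 332 and 214 RPKM in PH-failure 1, 2 and 3, 327, 328 and 364 RPKM in PH-healthy 1, 2 and 3, and in low PAP 423 at the lowest, 495 at the median and 562 at the highest. PH-failure 1 lay within the low-PAP range and the other hypertensive libraries lay below it. CYC1 fell by log2 fold changes of -0.64 ± 0.19 in PH-failure (adjusted p = 0.0215) and -0.54 ± 0.19 in PH-healthy (adjusted p = 0.0395). UQCRFS1, the Rieske iron-sulfur protein and the other catalytic nuclear subunit, fell in both groups (-0.52 ± 0.17 in PH-failure, adjusted p = 0.0358, and -0.49 ± 0.17 in PH-healthy, adjusted p = 0.0426). Of the core proteins, which hold the complex together on the matrix side, UQCRC2 fell in both groups (-0.60 ± 0.14 and -0.52 ± 0.14), and UQCRC1 passed the test in PH-failure (-0.54 ± 0.18, adjusted p = 0.0336) but not in PH-healthy (-0.40 ± 0.18, adjusted p = 0.0877). UQCRH, the hinge protein beside cytochrome c1 (-0.52 ± 0.15 in PH-failure and -0.56 ± 0.15 in PH-healthy), and UQCR10, a small subunit (-0.64 ± 0.19 and -0.57 ± 0.19), fell in both groups. UQCRQ and UQCR11 passed the test in PH-failure (adjusted p = 0.0476 and 0.0499) and not in PH-healthy (adjusted p = 0.0996 and 0.0623). Their PH-failure calls were lost under 15 and 14 of 23 alternative settings. The difference between the hypertensive groups was itself tested, as described further on, and no member passed.

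CYCS, cytochrome c, carries single electrons from complex III to complex IV and, once released from mitochondria, takes part in the apoptosome (chromosome 4, 71186306 to 71189107). It had 409, 482 and 464 RPKM in PH-failure 1, 2 and 3, 526, 398 and 393 RPKM in PH-healthy 1, 2 and 3, and in low PAP 451 at the lowest, 632 at the median and 938 at the highest. Both hypertensive groups overlapped low PAP, whose lowest library was low PAP 1. The log2 fold change was -0.57 ± 0.21 in PH-failure (adjusted p = 0.0484) and -0.63 ± 0.21 in PH-healthy (adjusted p = 0.0345). The PH-failure call was lost under 15 of 23 alternative settings, among them the fits without PH-failure 1, 2 or 3. The PH-healthy call was lost under 8.

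Complex IV divided by isoform. The 3 muscle isoforms of subunits with a pair, COX6A2, COX7A1 and COX8B, all fell in both hypertensive groups, and their counterparts found in most tissues, COX6A1, COX7A2 and COX8A, did not pass the test in either. Under the 23 alternatives run, COX7A1 kept its call in both groups. COX8B lost its call under 2 of them in PH-failure and 13 in PH-healthy, and COX6A2 under 3 and 11. The counterparts passed under none of the 23. The sign of their differences was not stable, since COX7A2 turned positive in both groups with quantile normalization and COX8A turned negative in PH-healthy with median-ratio scaling. COX7A1, the muscle isoform of subunit 7A and the most abundant of all the members in low PAP (chromosome 18, 46994991 to 46996544), had 1623, 1166 and 948 RPKM in PH-failure 1, 2 and 3, 1187, 1330.2 and 1267 RPKM in PH-healthy 1, 2 and 3, and in low PAP 1697 at the lowest, 2446 at the median and 2921 at the highest. No hypertensive library reached the lowest low-PAP library. COX7A1 had log2 fold changes of -0.96 ± 0.19 in PH-failure (adjusted p = 0.00512) and -0.91 ± 0.19 in PH-healthy (adjusted p = 0.0054), the lowest among the members in PH-failure and, after ATP5E, in PH-healthy. COX7A2, its counterpart (chromosome 9, 15041836 to 15046972), had 337, 291 and 294 RPKM in PH-failure, 324, 355 and 269 RPKM in PH-healthy and 255 to 453 RPKM in low PAP, so the 3 groups overlapped throughout (-0.09 ± 0.19 in PH-failure, adjusted p = 0.716, and -0.06 ± 0.19 in PH-healthy, adjusted p = 0.825).

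COX6A2, the muscle isoform of subunit 6A (chromosome 25, 27737582 to 27738205), had 822, 486 and 357 RPKM in PH-failure 1, 2 and 3, 592, 555 and 642 RPKM in PH-healthy 1, 2 and 3, and in low PAP 701 at the lowest, 1019 at the median and 1317 at the highest. PH-failure 1 alone of the hypertensive libraries lay inside the low-PAP range, and PH-failure 3 was the lowest of all 12. The log2 fold change was -0.94 ± 0.25 in PH-failure (adjusted p = 0.0155) and -0.75 ± 0.25 in PH-healthy (adjusted p = 0.0341). COX6A1 (chromosome 17, 64995248 to 64997121) lay at 66.7, 42.2 and 62.8 RPKM in PH-failure, 56.7, 56.4 and 50.3 RPKM in PH-healthy and 51.9 to 69.4 RPKM in low PAP, with log2 fold changes of -0.15 ± 0.14 (adjusted p = 0.423) and -0.20 ± 0.14 (adjusted p = 0.298).

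COX8B, the muscle isoform of subunit 8 in cattle (chromosome 11, 107244220 to 107246853), had 281, 203 and 157 RPKM in PH-failure 1, 2 and 3, 227, 251 and 259.5 RPKM in PH-healthy 1, 2 and 3, and in low PAP 274 at the lowest, 363 at the median and 459 at the highest. All PH-healthy libraries and PH-failure 2 and 3 lay below low PAP. The log2 fold change was -0.79 ± 0.19 in PH-failure (adjusted p = 0.0113) and -0.56 ± 0.19 in PH-healthy (adjusted p = 0.0415). The COX8A entry had 141, 105 and 85.2 RPKM in PH-failure, 120.2, 125 and 119 RPKM in PH-healthy and 102 to 129 RPKM in low PAP (-0.09 ± 0.14, adjusted p = 0.629, and 0.07 ± 0.14, adjusted p = 0.709). This entry has a single exon on chromosome 20, 24442440 to 24442887, a different chromosome from the one RefSeq (ARS-UCD2.0) gives for COX8A. The COX6B1 entry (chromosome 5, 94363786 to 94364264) is placed likewise, and the values of both may not be those of the named genes.

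The ratio of the muscle isoform to its counterpart, taken within each library, hardly depends on a factor common to all genes of that library. A shift that goes with a gene's level is not removed, and the muscle isoform was the more abundant in each of these 3 pairs. With quantile normalization the PH-healthy log2 fold changes were -0.60 for COX7A1 and 0.13 for COX7A2. They were -0.31 for COX6A2 and -0.19 for COX6A1, and -0.36 for COX8B and 0.12 for COX8A. The ratios were not tested with it. COX7A1 stood at 4.81, 4.01 and 3.23 times COX7A2 in PH-failure 1, 2 and 3, at 3.66, 3.74 and 4.71 times in PH-healthy 1, 2 and 3, and at 6.43 to 8.72 times in low PAP. The muscle isoform thus made up 79.7 ± 3.23% of the summed RPKM of the pair in PH-failure (SD, n = 3), 80.0 ± 2.18% in PH-healthy (n = 3) and 87.8 ± 1.49% in low PAP (n = 6). The hypertensive libraries did not overlap low PAP. The log2 ratio, of RPKM + 1, differed from low PAP by -0.86 in PH-failure and by -0.85 in PH-healthy (2-sided exact permutation test, p = 0.0119 in both, the smallest that 3 against 6 allows, and 0.0357 adjusted over the 12 tests of 4 pairs and 3 comparisons). For COX6A2 over COX6A1 the ratio was 9.84 ± 3.62 in PH-failure, 11.0 ± 1.54 in PH-healthy and 16.2 ± 2.62 in low PAP. Its log2 differences were -0.79 in PH-failure (exact permutation p = 0.0119, adjusted 0.0357) and -0.56 in PH-healthy (exact p = 0.0238, adjusted 0.0476), without overlap. PH-failure 3 had much the lowest ratio, and without it the PH-failure difference was -0.43 (exact p = 0.0714, adjusted 0.143, where 2 against 6 cannot go below an exact p of 0.0357). For COX8B over the COX8A entry the ratio was 1.93 ± 0.0774 in PH-failure, 2.02 ± 0.150 in PH-healthy and 3.19 ± 0.624 in low PAP, with log2 differences of -0.70 (exact p = 0.0119, adjusted 0.0357) and -0.63 (exact p = 0.0238, adjusted 0.0476). Between PH-failure and PH-healthy no ratio passed (exact permutation p of 0.4 to 1, where 3 against 3 cannot go below 0.1).

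**Figure D2:**
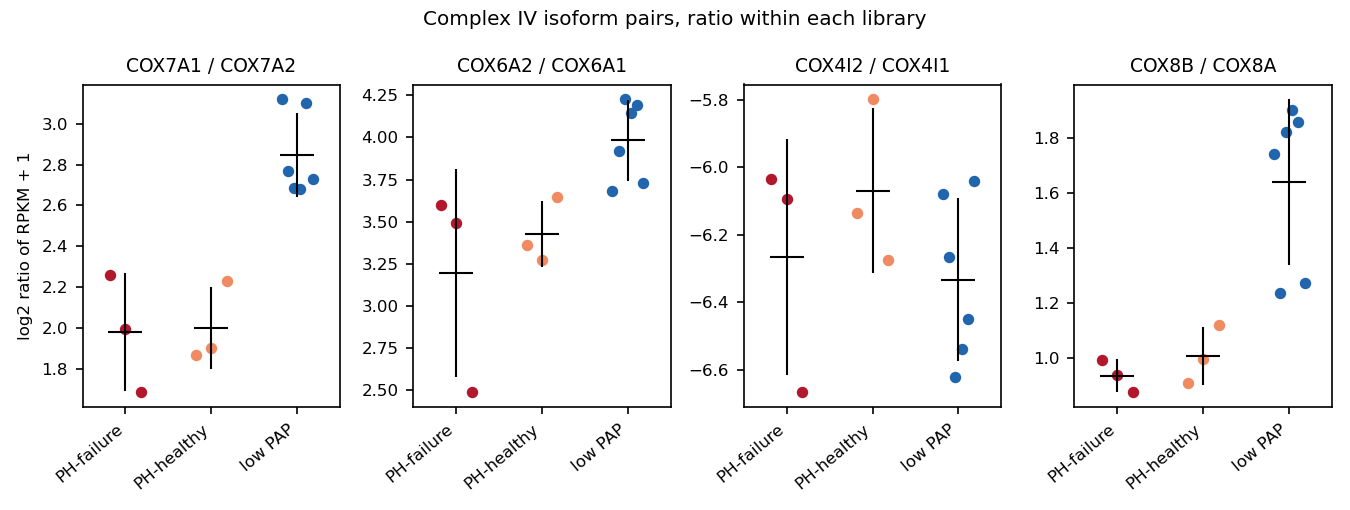
Log2 ratio of RPKM + 1 (vertical axes, a separate scale for each pair) within each library for 4 isoform pairs of complex IV, in PH-failure (dark red), PH-healthy (orange) and low PAP (blue); points are libraries, black marks the mean and 1 SD. In the COX7A1, COX6A2 and COX8B panels all hypertensive libraries lie below all low-PAP libraries, while the COX4I2 panel overlaps.

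Each ratio test has few libraries behind it: leaving out 1 library put the adjusted p of these 6 differences between 0.0429 and 0.143, with no change of direction. Without 1 hypertensive library the test is 2 against 6, whose exact permutation p cannot go below 0.0357. Its adjusted p was then 0.0714 or more, so the loss of the call in those fits was fixed by the group size. Calls were also lost with every hypertensive library kept. Of the fits without 1 low-PAP library, only those without low PAP 2 or 6 kept any of the 6 calls. In the rest the adjusted p was 0.0536 to 0.0714, and the group size alone did not fix that loss. Over the 9 fits for each difference, COX6A2 in PH-healthy lost its call in 9 and the other differences in 7. The library series is a number in the library names that goes with a sequencing lane in the column headers. Series 56 holds 1 PH-healthy library, PH-healthy 1, and series 55 holds 1 PH-failure library, PH-failure 3. Within series 56 the COX7A1 ratio differed by -0.73 in PH-failure and -0.99 in PH-healthy from low PAP. Within series 55 it differed by -1.15 and -0.77. For COX6A2 the within-series differences were -0.37 and -0.55 in series 56 and -1.56 and -0.59 in series 55. For COX8B they were -0.66 and -0.72 in series 56 and -0.77 and -0.59 in series 55.

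The fourth pair behaved otherwise. COX4I1, the subunit 4 isoform of most tissues (1134, 774 and 632 RPKM in PH-failure, 826, 908 and 884 RPKM in PH-healthy, 1026 to 1351 RPKM in low PAP), fell in PH-failure (-0.53 ± 0.17, adjusted p = 0.0303) and missed the threshold in PH-healthy (-0.44 ± 0.17, adjusted p = 0.0553). COX4I2, the isoform known from lung and induced by low oxygen in cultured mammalian cells, was 1.19 ± 0.320% of the pair in PH-failure, 1.37 ± 0.258% in PH-healthy and 1.16 ± 0.198% in low PAP. It had 16.3, 10.4 and 5.23 RPKM in PH-failure 1, 2 and 3, 10.8, 15.3 and 10.4 RPKM in PH-healthy 1, 2 and 3, and 12.7 to 15.2 RPKM in low PAP. The log2 ratio to COX4I1 differed by 0.07 in PH-failure and 0.26 in PH-healthy (exact permutation p = 0.798 and 0.190).

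Among the complex IV subunits without an isoform pair here, COX6C fell most. It had 1687, 1075 and 976 RPKM in PH-failure 1, 2 and 3, 1346, 1395 and 1119 RPKM in PH-healthy 1, 2 and 3, and in low PAP 1825 at the lowest, 2224 at the median and 2727 at the highest. All 6 hypertensive libraries lay below low PAP, and the log2 fold change was -0.91 ± 0.18 in PH-failure (adjusted p = 0.00543) and -0.83 ± 0.18 in PH-healthy (adjusted p = 0.00678). COX5B, the zinc-binding subunit (-0.61 ± 0.17 in PH-failure and -0.56 ± 0.17 in PH-healthy), and COX7B (-0.56 ± 0.14 and -0.53 ± 0.14) also fell in both. COX5A (-0.35 ± 0.16, adjusted p = 0.0956, and -0.25 ± 0.16, adjusted p = 0.238) and COX7C (-0.41 ± 0.24, adjusted p = 0.186, and -0.57 ± 0.24, adjusted p = 0.0735) did not pass in either. The COX6B1 entry was low, at 10.6, 4.12 and 2.07 RPKM in PH-failure, 3.62, 6.95 and 3.39 RPKM in PH-healthy and 4.99 to 8.73 RPKM in low PAP. It did not pass (-0.26 ± 0.33 in PH-failure and -0.32 ± 0.33 in PH-healthy). COX6B2, the testis isoform of that subunit in mammals, had 9 reads over the PH-failure libraries, 3 over PH-healthy and 1 over low PAP, too few for a fold change.

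COX7A2L, a relative of the subunit 7A genes that is linked to supercomplexes of complexes III and IV, was the 1 member with a positive log2 fold change in both groups. It had 96.9, 90.1 and 90.9 RPKM in PH-failure 1, 2 and 3, 106, 132 and 91.8 RPKM in PH-healthy 1, 2 and 3, and in low PAP 70.0 at the lowest, 84.7 at the median and 102 at the highest. The groups overlapped, and neither difference passed (0.11 ± 0.13 in PH-failure, adjusted p = 0.531, and 0.34 ± 0.13 in PH-healthy, adjusted p = 0.0629). With quantile normalization, and without low PAP 3 or PH-healthy 3, it was called higher in PH-healthy.

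Among the ATP synthase genes, all 4 genes of the peripheral stalk, which holds the catalytic head still (ATP5F1, ATP5H, ATP5J and ATP5O), fell in both groups, with log2 fold changes of -0.69 to -0.64 in PH-failure and -0.70 to -0.56 in PH-healthy. The 3 genes of the small membrane subunits e, f and g, which take part in joining enzymes into dimers (ATP5I, ATP5J2 and ATP5L), fell in both groups too, with log2 fold changes of -0.78 to -0.51 in PH-failure and -0.76 to -0.47 in PH-healthy. ATP5I, subunit e (chromosome 6, 108851271 to 108852813), had 1258, 843 and 830.3 RPKM in PH-failure 1, 2 and 3, 976, 1009 and 939 RPKM in PH-healthy 1, 2 and 3, and in low PAP 1246 at the lowest, 1735 at the median and 2075 at the highest. PH-failure 1 just reached the low-PAP range and the other hypertensive libraries lay below it (-0.78 ± 0.19 in PH-failure, adjusted p = 0.0102, and -0.76 ± 0.19 in PH-healthy, adjusted p = 0.0102).

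Of the 5 genes of the catalytic head and central stalk, ATP5C1, the gamma subunit that turns inside the head, fell in both groups (-0.44 ± 0.14 in PH-failure and -0.45 ± 0.14 in PH-healthy). ATP5A1 and ATP5B, the alpha and beta subunits that form the head, did not pass in either. ATP5B, the most abundant member of complex V in low PAP (chromosome 5, 57119917 to 57125290), had 1938, 1704 and 1078 RPKM in PH-failure 1, 2 and 3, 1669, 1672 and 1889.8 RPKM in PH-healthy 1, 2 and 3, and in low PAP 1699 at the lowest, 2053 at the median and 2231 at the highest. PH-failure 3 stood far below the other hypertensive libraries, and the log2 fold change was -0.39 ± 0.17 in PH-failure (adjusted p = 0.0843) and -0.20 ± 0.17 in PH-healthy (adjusted p = 0.36). With quantile normalization ATP5B was at 0.09 in PH-healthy. ATP5B was called lower in PH-failure with median-ratio scaling (-0.65, adjusted p = 0.0295), with scaling without the mitochondrial genome, with the length trend removed and without PH-failure 1. ATP5A1 had 1908, 1663 and 1358 RPKM in PH-failure, 1613, 1639 and 1683 RPKM in PH-healthy and 1526 to 1995 RPKM in low PAP, and the log2 fold change was -0.11 ± 0.13 in PH-failure (adjusted p = 0.532) and -0.09 ± 0.13 in PH-healthy (adjusted p = 0.602). ATP5D, the delta subunit, had log2 fold changes of -0.19 ± 0.18 and -0.22 ± 0.18 and did not pass. The difference between the parts of the enzyme was not tested.

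The ring of c subunits that protons turn is encoded by 3 genes whose mature proteins are the same. ATP5G3 fell in both groups (-0.61 ± 0.17 in PH-failure and -0.54 ± 0.17 in PH-healthy), ATP5G2 passed in PH-healthy (-0.57 ± 0.15, adjusted p = 0.0134) and not in PH-failure (-0.34 ± 0.15, adjusted p = 0.0917), and ATP5G1 passed in neither (adjusted p = 0.0722 and 0.0834). ATP5G3 gave 42.7 ± 1.71% of their summed RPKM in PH-failure, 45.5 ± 4.31% in PH-healthy and 45.7 ± 1.81% in low PAP, and ATP5G1 gave 31.2 ± 3.91%, 32.0 ± 1.10% and 31.2 ± 0.875%. The ranges of all 3 groups overlapped for each gene, and the shares were not tested.

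ATP5E, the epsilon subunit of the central stalk, has a second entry in the table, and the reads divided between the entries unevenly across libraries. The kept entry (chromosome 13, 57866138 to 57869829) had 679, 500.02 and 269.9 RPKM in PH-failure 1, 2 and 3, 295, 346 and 501 RPKM in PH-healthy 1, 2 and 3, and in low PAP 445 at the lowest, 805 at the median and 989.6 at the highest. The other entry has a single exon (chromosome 22, 35335190 to 35335581), and it took 42.5 to 45.2% of the reads of both entries in PH-failure 3 and PH-healthy 1 and 2, 43.0 and 43.8% in low PAP 1 and 2, and 1.95 to 2.67% in the other 7 libraries. Taken alone, the kept entry missed the threshold in PH-failure (-0.66 ± 0.32, adjusted p = 0.124) and passed in PH-healthy (-0.94 ± 0.32, adjusted p = 0.0392). With the reads of both entries summed, the log2 fold change was -0.67 ± 0.16 in PH-failure (limma adjusted p = 0.0101) and -0.65 ± 0.16 in PH-healthy (adjusted p = 0.00997). Summed and scaled to the mapped reads of each library (RPM), ATP5E had 269.9 to 399 RPM in PH-failure, 294 to 363 in PH-healthy and 395 to 580 in low PAP. The sources used here do not give how reads were counted between such entries. Of the other repeated symbols, COX7B (-0.59 in PH-failure and -0.57 in PH-healthy) and CYCS (-0.57 and -0.62) were also called lower when summed, and COX7C did not pass either way.

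**Figure D3:**
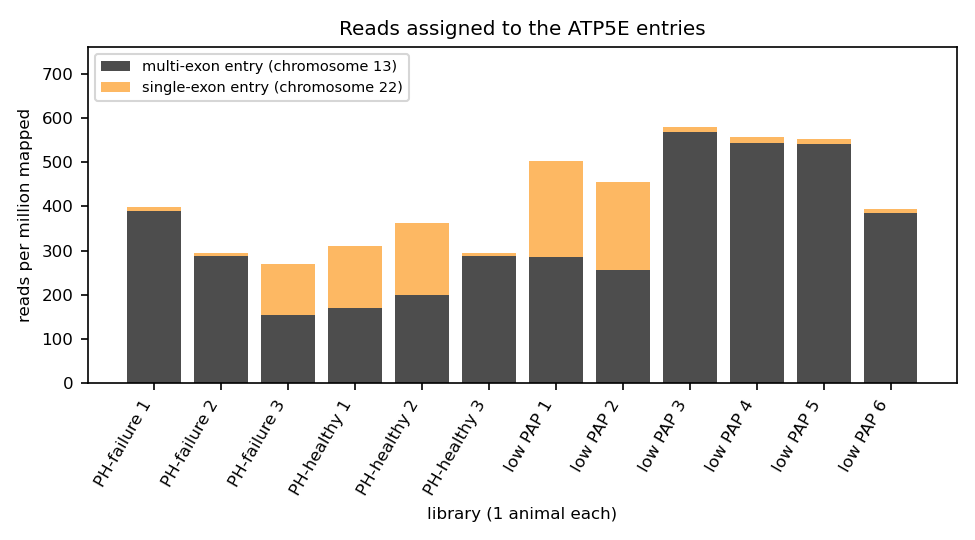
RPM, reads scaled to the mapped reads of the library (vertical axis, from 0), assigned to the multi-exon ATP5E entry (dark grey) and the single-exon entry of the same symbol (orange, stacked) in each of the 12 libraries. The single-exon entry is large in 5 libraries of all 3 groups, PH-failure 3, PH-healthy 1 and 2 and low PAP 1 and 2, and 5 of the 6 hypertensive stacks lie below every low-PAP stack.

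ATP5S and ATP5SL share the prefix but are not subunits of the enzyme, and are now named DMAC2L and DMAC2. ATP5S, which encodes the coupling factor B, had 17.2, 19.3 and 12.5 RPKM in PH-failure 1, 2 and 3, 17.0, 16.4 and 19.0 RPKM in PH-healthy 1, 2 and 3, and in low PAP 23.1 at the lowest, 29.8 at the median and 32.4 at the highest. No hypertensive library reached low PAP, and it had the smallest adjusted p of the members in both comparisons (-0.80 ± 0.14 in PH-failure, adjusted p = 0.00299, and -0.69 ± 0.14 in PH-healthy, adjusted p = 0.00462). ATP5SL, whose product is known from assembly of complex I, did not pass the test (0.09 ± 0.20 in PH-failure, adjusted p = 0.75, and -0.00 ± 0.20 in PH-healthy, adjusted p = 0.998).

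No member separated the hypertensive groups from each other. In PH-failure against PH-healthy, 0 of 42 members passed, where 0.00879% of all tested genes (1 gene) did, and 0 had an unadjusted p under 0.05. For 0 members did all PH-failure libraries lie below all PH-healthy libraries, where 2.13% of tested genes did, and for 0 did they lie above, where 3.61% did. The members' log2 fold changes ran from -0.28 to 0.28 with a median of -0.03 and a median SE of 0.20, and 41 of the 42 95% intervals lay within 1 on the log2 scale in either direction. Differences inside those intervals were not detectable with 3 animals a group. Within library series 55 (1 PH-failure and 2 PH-healthy libraries) 39 of 42 members were lower in PH-failure, with a median of -0.39, and within series 56 (2 and 1) 4 of 42 were, with a median of 0.16.

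Spread was unequal between the groups. The median coefficient of variation of the members was 25.1% in PH-failure, 7.67% in PH-healthy and 14.5% in low PAP. PH-failure 1 was the highest of the 6 hypertensive libraries in 37 of 42 members, and PH-failure 3 the lowest in 34. The summed RPKM of the members was 36062 in PH-failure 1 and 22772 in PH-failure 3, against 28008 to 29891 in PH-healthy and 34941 to 50733 in low PAP. In low PAP, replicate 3 was highest in 28 members and replicate 6 lowest in 27. The PH-failure comparison had a members' median of -0.94 within series 55 (1 PH-failure library, PH-failure 3) and -0.34 within series 56. The PH-healthy comparison had -0.52 within series 55 and -0.55 within series 56 (1 PH-healthy library).

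**Figure D4:**
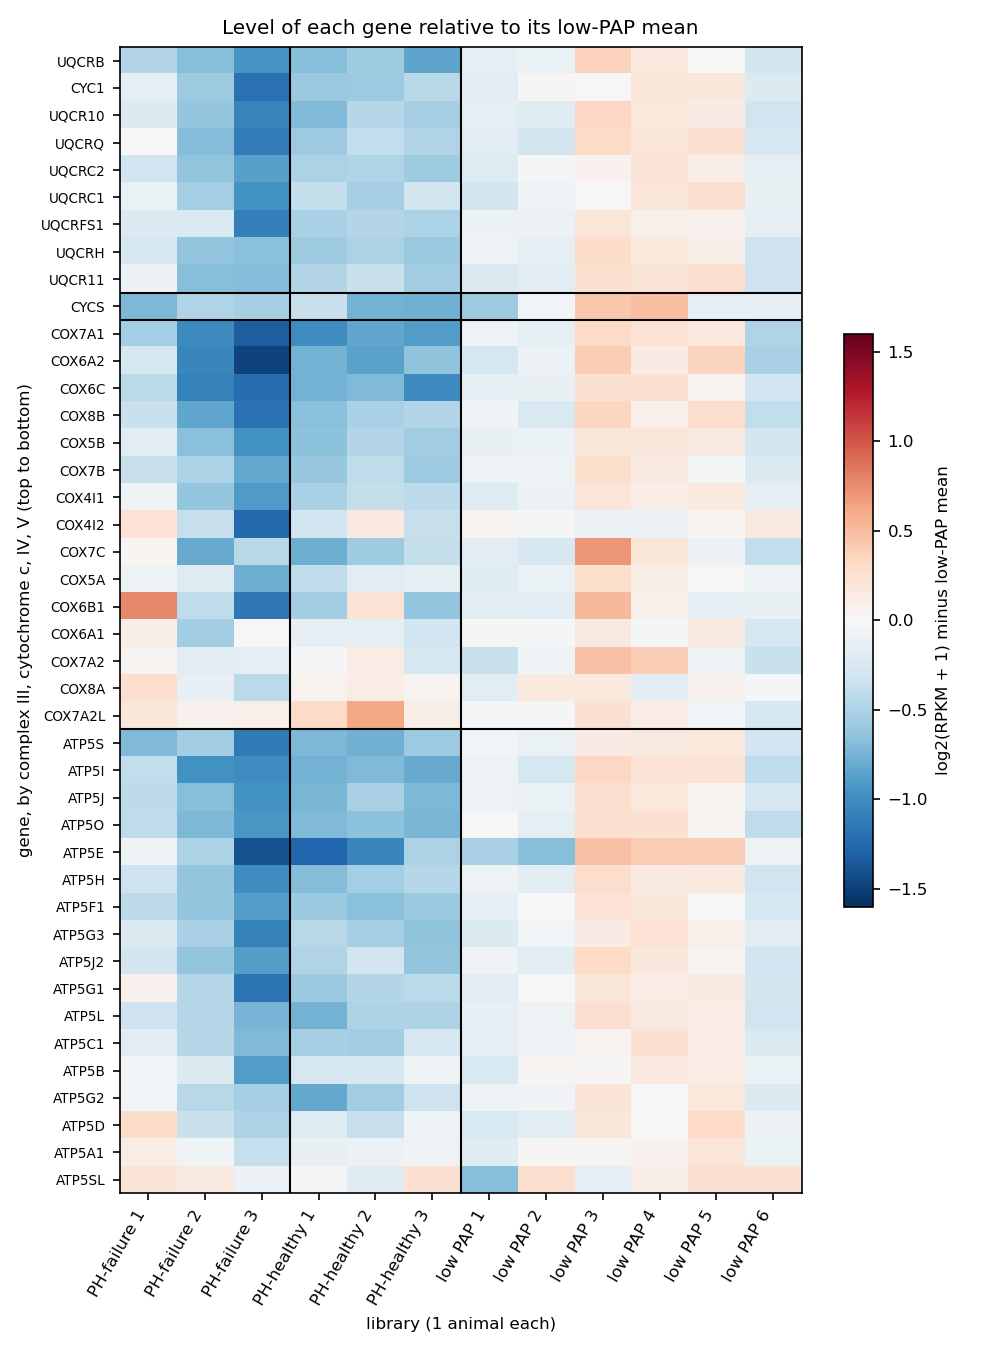
Log2(RPKM + 1) of each tested member minus its low-PAP mean (colour, blue lower and red higher) in each of the 12 libraries, in columns, with PH-failure left, PH-healthy in the middle and low PAP right; genes are ordered by complex. PH-failure 3 is the darkest column, PH-failure 1 the palest of the hypertensive ones, and COX7A2L and ATP5SL are among the few genes without a blue block.

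Abundant genes as a class read lower in the hypertensive groups, and 30 of the members belong to that class. Among the 194 tested genes with a low-PAP mean of 500 RPKM or more, the members were called lower in 23 of 30 cases (76.7%) in PH-failure and the other genes in 25.0% of 164. In PH-healthy the members were called lower in 22 of 30 cases (73.3%) and the other genes in 54.9%. The medians were -0.60 for the members and -0.26 for the others in PH-failure, and -0.56 and -0.49 in PH-healthy. Short genes also read lower: tested genes with up to 400 exon bases had a median of -0.17 in PH-failure and -0.24 in PH-healthy, and those above 4000 bases 0.42 and 0.43. With the trend with exon length removed, 26 members were called lower in PH-failure, where 11.5% of all tested genes were, and 18 in PH-healthy, where 13.4% were. Of the 27 and 25 calls made without this step, 25 and 16 were among them. Quantile normalization brings the median of all genes to -0.03 and -0.04. With it, 15 members were called lower in PH-failure, where 12.5% of all tested genes were. In PH-healthy 5 of 42 were (ATP5I, ATP5S, COX6C, COX7A1 and UQCRB), where 14.3% of all tested genes were. The members' share in PH-healthy was thus under that of all genes. With median-ratio scaling 32 and 31 members were called lower, where 14.8 and 16.4% of all tested genes were. Over all tested genes the calls were 658 lower and 3190 higher in PH-failure and 927 lower and 3024 higher in PH-healthy, against 1418 and 1133 in PH-failure and 1622 and 1424 in PH-healthy with quantile normalization, and 1681 and 1530 in PH-failure and 1861 and 1824 in PH-healthy with median-ratio scaling.

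**Figure D5:**
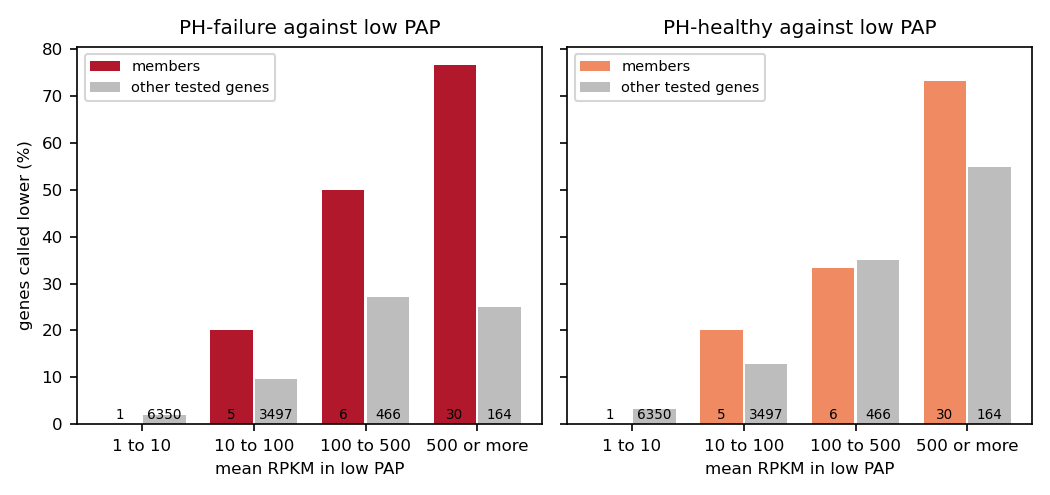
Share of genes called lower against low PAP (vertical axis, percent, from 0) in classes of mean RPKM in low PAP, for the members (coloured bars) and the other tested genes (grey), with PH-failure left and PH-healthy right; the number of genes stands at the foot of each bar. In the class of 500 RPKM or more the member bars are at 76.7% and 73.3%, and the grey bars at 25.0% and 54.9%.

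The table lists 3 further subunits of these complexes whose symbols do not follow the rule. NDUFA4, a subunit of complex IV despite its name, USMG5 (subunit k of the ATP synthase) and MP68 (its 6.8-kDa proteolipid) all fell in both groups. MP68 had a log2 fold change of -0.95 ± 0.17 in PH-failure (adjusted p = 0.0032) and -0.92 ± 0.17 in PH-healthy (adjusted p = 0.00291). ATPIF1, the inhibitor of the ATP synthase, fell as well (-0.43 ± 0.14 in PH-failure and -0.44 ± 0.14 in PH-healthy). The assembly factors of the ATP synthase, ATPAF1, ATPAF2 and TMEM70, passed in neither group. Of the 6 mitochondrially encoded subunits of complexes III, IV and V, COX1 (-0.47 ± 0.17 in PH-failure and -0.49 ± 0.17 in PH-healthy) and COII (-0.66 ± 0.15 and -0.43 ± 0.15) fell in both, and cytochrome b, COX3, ATP6 and ATP8 did not pass. The median over the 6 was -0.24 in PH-failure and -0.21 in PH-healthy. The RPKM of cytochrome b over the summed RPKM of the nuclear complex III genes was 2.19 ± 0.387 in PH-failure, 2.21 ± 0.314 in PH-healthy and 1.58 ± 0.314 in low PAP, with overlap between each hypertensive group and low PAP. The same ratio for complex IV was 8.58 ± 1.33, 8.59 ± 1.04 and 7.60 ± 1.79, with overlap likewise. For complex V it was 3.81 ± 1.13, 3.72 ± 0.107 and 3.06 ± 0.311. There PH-healthy (3.64 to 3.84) lay above low PAP (2.62 to 3.51), and PH-failure overlapped low PAP. These ratios were not tested.

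Of 17 tested genes for assembly of complex IV and copper delivery, 4 fell and 2 rose in PH-failure, where 5.79% of all tested genes fell and 28% rose. In PH-healthy 2 fell and 3 rose, where 8.15% fell and 26.6% rose. COX15, an enzyme that makes the heme of complex IV, rose in both (0.79 ± 0.19 in PH-failure, adjusted p = 0.0102, and 1.04 ± 0.19 in PH-healthy, adjusted p = 0.00248), as did TACO1, an activator of COX1 translation (0.73 ± 0.20 and 0.66 ± 0.20). COX17, the copper chaperone, fell in both (-0.53 ± 0.15 and -0.54 ± 0.15). In complex III assembly 1 of 6 genes, TTC19, fell in PH-failure, and 0 passed in PH-healthy. Of the 4 subunits of complex II, SDHB fell in PH-failure (-0.45 ± 0.14, adjusted p = 0.0303), and 0 passed in PH-healthy.

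Among 15 regulators of respiratory genes, 4 rose and 1 fell in PH-failure, where 28% of all tested genes rose and 5.79% fell, and 3 rose and 1 fell in PH-healthy, where 26.6% rose and 8.15% fell. The share of regulators that rose was thus near or under that of all genes. ESRRG, an orphan nuclear receptor that drives oxidative genes in heart, rose in both (0.92 ± 0.20 in PH-failure, adjusted p = 0.00791, and 1.14 ± 0.20 in PH-healthy, adjusted p = 0.00244), and so did GABPA, a subunit of nuclear respiratory factor GABP (0.59 ± 0.15 and 0.53 ± 0.15). TFB2M, a transcription factor of the mitochondrial genome, fell in both (-0.46 ± 0.12 and -0.36 ± 0.12). SLC25A4, the heart form of the carrier that exports ATP from mitochondria, was the 1 of 8 carrier genes that fell, in both groups (-0.53 ± 0.14 and -0.49 ± 0.14). Among the partners of cytochrome c in the apoptosome, APAF1 rose in both groups (0.75 ± 0.21 in PH-failure and 0.61 ± 0.21 in PH-healthy) and CASP9 rose in PH-failure (0.42 ± 0.14).

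Markers of other cells were also read. In PH-failure 5 of 8 fibroblast, 4 of 5 endothelial, 3 of 5 smooth muscle and 4 of 5 macrophage markers rose, where 28% of all tested genes rose. In PH-healthy 5, 3, 2 and 3 did, where 26.6% of all tested genes rose. The summed fibroblast markers ran from 1012 to 1649 RPKM in PH-failure, 704 to 1276 RPKM in PH-healthy and 715 to 961 RPKM in low PAP, and the macrophage markers from 23.2 to 75.2 RPKM, 18.7 to 30.2 RPKM and 8.22 to 20.1 RPKM. Of 13 cardiomyocyte markers, 6 fell and 0 rose in PH-failure, where 5.79% of all tested genes fell. In PH-healthy 3 fell and 1 rose, where 8.15% of all tested genes fell. Of 3 tested atrial markers, 1 fell and 0 rose in each group. Their median log2 fold change was positive, at 0.48 in PH-failure and 0.30 in PH-healthy. The 1 that fell was MYL7, the atrial myosin light chain (-2.57 ± 0.36 in PH-failure and -2.85 ± 0.36 in PH-healthy). The summed atrial markers ran from 425 to 1837 RPKM in PH-failure, 539 to 876 RPKM in PH-healthy and 3085 to 6775 RPKM in low PAP. Adipocyte markers summed to 464 to 1583 RPKM in PH-failure, 371 to 515 RPKM in PH-healthy and 271 to 571 RPKM in low PAP, with 0 of 5 called. The median log2 fold change of these 5 was 0.98 in PH-failure and -1.16 in PH-healthy. Of the T and NK cell markers 1 of 5 fell in each group, beside the same shares of 5.79% and 8.15%, and 0 of 2 tested red blood cell markers passed. No listed marker in the table was at 0 in every library. With the adipocyte score as a term, 20 members were called lower in PH-failure, where 4.70% of all tested genes were. In PH-healthy 8 members were, where 2.28% of all tested genes were, against 8.15% without the term. The members' median log2 fold change with the term was -0.60 in PH-failure and -0.48 in PH-healthy. The part of these cells in the members' lower levels was not tested otherwise.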

How the data were processed

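RNA from the right ventricle of 12 steers was sequenced, 1 library for each animal. The values are RPKM per gene, made and deposited by the authors, per the file headers; the sources used here name no aligner, counting rule, strand setting or build. The authors' deposited table also holds their group means, a signed fold change (a score with no values between -1 and 1) and p-values, none of which were used. Steps between RPKM values returned whole reads, within 0.05 reads, for all 17284 genes above 0.

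Genes that reached 1 RPKM in 3 or more libraries were tested on log2(RPKM + 1) with limma 3.58.1 (trend and robust options, statmod 1.5.0, R 4.3.3) over all 12 libraries and 3 groups, and p-values were Benjamini-Hochberg adjusted over all 11374 genes. Fold changes on this scale understate the change of low genes. The log2 ratios of isoforms were compared by 2-sided exact permutation tests (Python 3.11.15, numpy 2.4.6, scipy 1.17.1, pandas 2.3.3; figures with matplotlib 3.10.9). The scripts were tested on simulated data. The members, the gene lists and the tests were chosen with earlier results of these data known. Named with values were the 5 called members that fell most in each comparison, the isoform pairs, the most abundant member of each complex, CYC1, CYCS and genes failing the filter; other members appear to account for all, and from each other list at most 3 genes of smallest p per comparison. Alternatives comprised 23 settings. Depth was 14739237 to 31090198 mapped reads, and the median tested gene had 370 reads per library. RefSeq (ARS-UCD2.0) gave current names; coordinates are those of the table. Of the listed genes, 1 gene is not reported here.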

Additional observations from a re-analysis of the deposited data

How the results depend on the processing

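No result that passed its test changed direction under the 23 alternatives, 2 of which were chosen after seeing the data; results that had not passed did change sign, among them the COX4I2 ratio in PH-failure, COX6A1, COX7A2, COX8A and ATP5B against low PAP, and differences between the hypertensive groups. Over all called members and alternatives, 114 of 621 calls were lost in PH-failure and 152 of 575 in PH-healthy. Calls were kept under all 23 alternatives by 4 of 27 members in PH-failure (ATP5O, ATP5S, COX6C and COX7A1) and by 3 of 25 in PH-healthy (ATP5S, COX6C and COX7A1). With quantile normalization the members called lower numbered 15 in PH-failure and 5 in PH-healthy, where 12.5 and 14.3% of all tested genes were. It called 1 member higher in PH-healthy (COX7A2L), where 12.5% of all tested genes were. With the adipocyte score as a term 8 were called lower in PH-healthy, where 2.28% of all tested genes were. Without a filter on low values 1 was called higher in PH-failure (COX6B2). Leaving out 1 library gave 9 to 33 members lower in PH-failure, 10 to 30 lower in PH-healthy and 0 to 1 higher in PH-healthy. Of all tested genes those fits called 2.26 to 8.17% lower in PH-failure and 3.36 to 9.60% in PH-healthy. With the replicate number as a block, 4 members were called lower in each group. Of all tested genes 1.38% were called lower with it in PH-failure and 2.81% in PH-healthy. The correlations between same-numbered libraries ran from -0.26 to 0.19, so the libraries share only a number and the block gives no pairing. Leaving out 1 library put the log2 ratio differences at -1.005 to -0.72 (COX7A1), -0.99 to -0.43 (COX6A2) and -0.78 to -0.65 (COX8B) in PH-failure, and at -0.96 to -0.78, -0.66 to -0.48 and -0.71 to -0.58 in PH-healthy. Library series 55 holds 1 PH-failure library, PH-failure 3, and series 56 holds 1 PH-healthy library, PH-healthy 1. Within series 55 the PH-failure differences from low PAP were -1.15 (COX7A1), -1.56 (COX6A2) and -0.30 (COX4I2), and those from PH-healthy -0.38, -0.97, -0.63 and, for COX8B, -0.18. Within series 56 they were -0.37 for COX6A2 from low PAP, and 0.26 (COX7A1) and 0.058 (COX8B) from PH-healthy. The cause of these changes was not tested. With 3 animals in each hypertensive group, differences between those groups smaller than the intervals given were not detectable, and counting error is largest for the members with fewest reads, among them COX6B1 and COX6B2.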
